A study of Mus musculus with 5 samples.

Results

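The genes described here encode the proteins that anchor cells to their surroundings: collagens, laminin chains, integrin subunits, and the matrix glycoproteins nephronectin (Npnt), fibronectin (Fn1) and the nidogens (Nid1, Nid2). Their mRNAs were measured in Neuro-2A (N2A), a neuroblastoma line from the mouse that grows attached to plastic. Protein-coding genes were taken by symbol, and a gene was a member if its raw counts summed to at least 50 over the 5 libraries. Of 83 protein-coding genes with a matching symbol, 51 were members, out of 55573 genes in the table. They were 24 collagens, 7 laminin chains, 9 integrin α subunits, 6 integrin β subunits, 3 glycoproteins and 2 proteins named for binding integrins (Itgb1bp1, Itgb3bp) that are not subunits. Members were chosen by symbol and selected on their summed raw counts over both groups, but the rule was written with earlier results of these libraries known. The rise of Npnt was among these, so its values are a description.

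Cells of 1 line were transfected with 60 pmol of a commercial control siRNA, which gave 2 libraries (siCtl, replicates 1 and 3), or with an siRNA against Upf1, which gave 3 (siUpf1, replicates 1, 2 and 3). Both groups received transfection reagent, and they differed in the siRNA. Upf1 encodes an RNA helicase that nonsense-mediated mRNA decay (NMD) needs, and the study used the knockdown to find RNAs that this decay pathway limits in neural cells. The labels do not say whether libraries came from separate cultures, so p-values measure the spread between these libraries, which may be technical.

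Collagens are triple helices of 3 chains, and collagen IV, laminins and nidogens build the basement membrane, the thin sheet on which epithelial, muscle and nerve cells rest. Integrins are receptors made of an α and a β subunit that bind these proteins outside the cell and the actin skeleton inside it. Nephronectin is a ligand of integrin α8β1, integrin α1β1 binds collagen IV, and β3 and β5 pair with αv to bind vitronectin and fibronectin. In the nervous system such contacts steer neurite outgrowth and the migration of neural crest cells, from which neuroblastoma arises.

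Libraries held 20402205 to 27717594 counts, of which the members took 0.388% to 0.3996%. Upf1 had 5217 and 5243 normalised counts in siCtl and 2403, 2496 and 2449 in siUpf1, or 46.8% of the siCtl mean (DESeq2 Wald test, adjusted p = 7.09e-101). Genes of sympathetic neurons and neurons at large had a summed level of 3381 to 3412 in siCtl and 4034 to 4184 in siUpf1. Their siCtl levels were uneven, with Tubb3 at 1239, Th at 11.1 and Dbh at 5.49. Nefl (0.143) and Nefm (0.0274) were hardly read and not tested. Of the 16 genes, 9 were called higher and 2 lower, against 22.0% and 22.9% of all genes tested. A level here is counts per kilobase of merged exon, divided by the sum of such values over protein-coding genes and printed in parts per 1000000. Markers of other cell types, among them cells that make much matrix in tissues, had lower sums. The 7 fibroblast markers summed to 3.96 to 4.40 in siCtl and 3.29 to 4.04 in siUpf1, with Lum, Twist2 and Pdpn at 0, and the 5 endothelial markers to 7.58 to 7.69 and 7.05 to 7.18, with Kdr and Emcn at 0. The 6 Schwann cell markers summed to 11.99 to 14.1 and 11.6 to 12.3 with Foxd3 at 0, and the 5 macrophage markers to 4.46 to 4.66 and 4.27 to 4.601. The 5 markers of smooth muscle and pericytes summed to 97.1 to 104 in siCtl and 108 to 137 in siUpf1, mostly Acta2. In these lists of other cell types, Acta2 and Tek were called higher and Pdgfra and Pecam1 lower. The part of these shifts in the results was not tested, and in bulk RNA fewer cells of a type and less RNA per cell cannot be told apart.

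After Upf1 knockdown the matrix and integrin genes did not move one way. Of the members called, Npnt, Itga1 and Itga8 rose most, Col18a1, Itgb3 and Col9a3 fell most, and the most abundant member, Itgb1, fell by a small amount. All 51 members were tested, and 8 were called higher and 13 lower at an adjusted p under 0.05 (DESeq2), while 30 were not called. The 8 include Npnt. Over all 15191 genes tested, 22.0% were called higher, 22.9% lower and 44.9% in either direction, and of 12730 protein-coding genes tested 51.2% were called. Among the members the share was 41.2%, and their median log2 fold change of -0.00029 was near that of all genes tested, -0.0024. Groups did not overlap for 35 members, 16 with siUpf1 above and 19 below, where 69.4% of all genes tested had no overlap. The 16 include Col28a1, which reached the count threshold only through its siUpf1 libraries. Without siCtl replicate 1, a fit with 1 control library, fewer members were called lower, and so were fewer genes over all those tested.

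**Figure D1:**
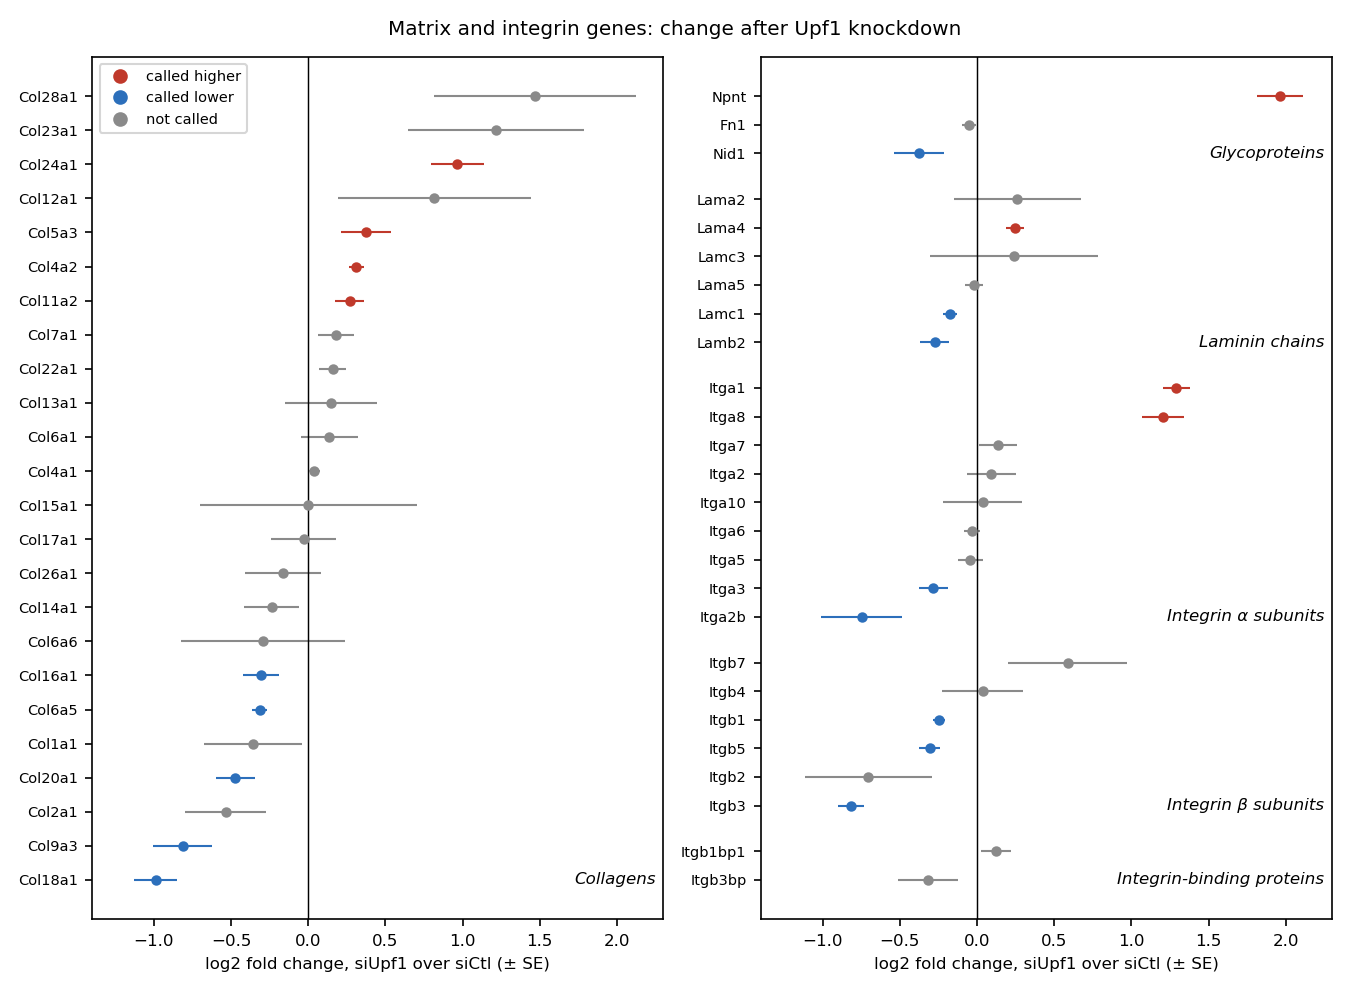
Log2 fold change of siUpf1 over siCtl (x axis, with DESeq2's standard error as bars) for all members but 1, by class, with colour for genes called higher, called lower or not called. Npnt is the farthest right at 1.96, Itga1 and Itga8 follow among the called members at 1.29 and 1.20, Col18a1 is the lowest at -0.99, and Col28a1 and Col23a1, at 1.47 and 1.22, have wide bars and were not called.

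The called members that rose most are a ligand and a pair of receptor subunits. To show the DNA in front of them, the 250 bases before the RefSeq start of Npnt, Itga8 and Itga1, and of Itga2, the neighbour of Itga1 that was not called, are printed from the minus strand of GRCm38.p6 with GC boxes (GGGCGG, or CCGCCC on the other strand) in capitals.
Npnt, chr3:132950292-132950541: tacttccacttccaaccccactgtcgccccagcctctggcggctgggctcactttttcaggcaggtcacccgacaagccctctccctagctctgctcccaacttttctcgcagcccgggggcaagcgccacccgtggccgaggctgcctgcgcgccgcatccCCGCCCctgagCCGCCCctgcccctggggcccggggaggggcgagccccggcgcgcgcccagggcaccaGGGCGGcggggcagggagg
Itga8, chr2:12301945-12302194: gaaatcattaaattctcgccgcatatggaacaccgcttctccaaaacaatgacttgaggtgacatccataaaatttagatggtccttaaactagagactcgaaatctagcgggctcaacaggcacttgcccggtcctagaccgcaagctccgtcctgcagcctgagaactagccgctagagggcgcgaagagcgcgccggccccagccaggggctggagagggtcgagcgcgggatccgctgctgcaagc
Itga1, chr13:115101965-115102214: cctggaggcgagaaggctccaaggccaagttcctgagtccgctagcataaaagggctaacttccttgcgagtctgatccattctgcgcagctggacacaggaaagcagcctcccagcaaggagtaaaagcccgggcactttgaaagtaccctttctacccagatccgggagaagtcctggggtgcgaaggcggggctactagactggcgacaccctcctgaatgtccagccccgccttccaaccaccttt
Itga2, chr13:114932101-114932350: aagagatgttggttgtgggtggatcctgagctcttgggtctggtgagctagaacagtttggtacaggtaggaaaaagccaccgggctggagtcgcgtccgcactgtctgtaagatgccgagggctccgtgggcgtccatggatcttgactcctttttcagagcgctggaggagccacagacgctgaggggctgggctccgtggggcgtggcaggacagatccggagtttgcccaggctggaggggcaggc

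The window of Npnt held 3 GC boxes and 74.0% G or C, and those of Itga8 (56.4%), Itga1 (57.6%) and Itga2 (60.8%) held none. None of these windows held a TATA box (TATAAA or TTTATA) or a CCAAT box (CCAAT or ATTGG). Of 32851 windows of this length, 32.7% held a GC box, 12.4% a TATA box and 33.8% a CCAAT box. The 37 windows found for 34 members held them at 45.9%, 8.11% and 24.3%. A match is a run of letters and not a known binding site.

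Npnt had 136 and 112 normalised counts in the siCtl libraries and 473, 466 and 509 in the siUpf1 libraries. Every siUpf1 library was above both siCtl libraries, with a log2 fold change of 1.96 (SE 0.15), or 3.88-fold. The gene lies on chr3:132881745-132950291 and encodes a secreted protein with EGF repeats and an RGD sequence, the integrin-binding motif.

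Itga8, the α8 subunit that with β1 forms the nephronectin receptor, also rose. Its normalised counts were 216 and 195 in siCtl and 497, 459 and 462 in siUpf1, groups that did not overlap, with a log2 fold change of 1.20 (SE 0.13, adjusted p = 4.09e-18). Per length, Npnt stood at a level of 3.93 ± 0.58 (SD, n = 2) and Itga8 at 4.44 ± 0.37 in siCtl. In siUpf1 the levels were 16.0 ± 1.01 (SD, n = 3) and 10.7 ± 0.54. The ratio of Npnt to Itga8 was 0.925 and 0.843 in siCtl and 1.40, 1.49 and 1.62 in siUpf1, higher in every siUpf1 library.

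Itga1, the α1 subunit of a collagen receptor, had 579 and 583 normalised counts in siCtl and 1495, 1422 and 1350 in siUpf1. The groups were far apart, with a log2 fold change of 1.29 (SE 0.08, adjusted p = 2.47e-50). The next gene on chromosome 13 is Itga2, which encodes the α2 subunit, another collagen receptor. The genes lie on the same strand with 20995 bases between them.

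Itga2 had 227 and 207 normalised counts in siCtl and 229, 226 and 239 in siUpf1. These groups overlapped, and Itga2 was not called (log2 fold change 0.09, SE 0.16, adjusted p = 0.679). The ratio of Itga1 to Itga2, per length, was 0.976 and 1.08 in siCtl and 2.51, 2.41 and 2.17 in siUpf1 (exact two-sided permutation test, p = 0.1, the smallest that 10 splits of 5 libraries can give). Per kilobase of merged exon (18599 bases for Itga1, 7133 for Itga2), the 2 genes were thus at like levels in siCtl. Itga1 was above Itga2 in every siUpf1 library. By count Itga1 was above Itga2 in every library of both groups, so the likeness in siCtl depends on the lengths used.

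**Figure D2:**
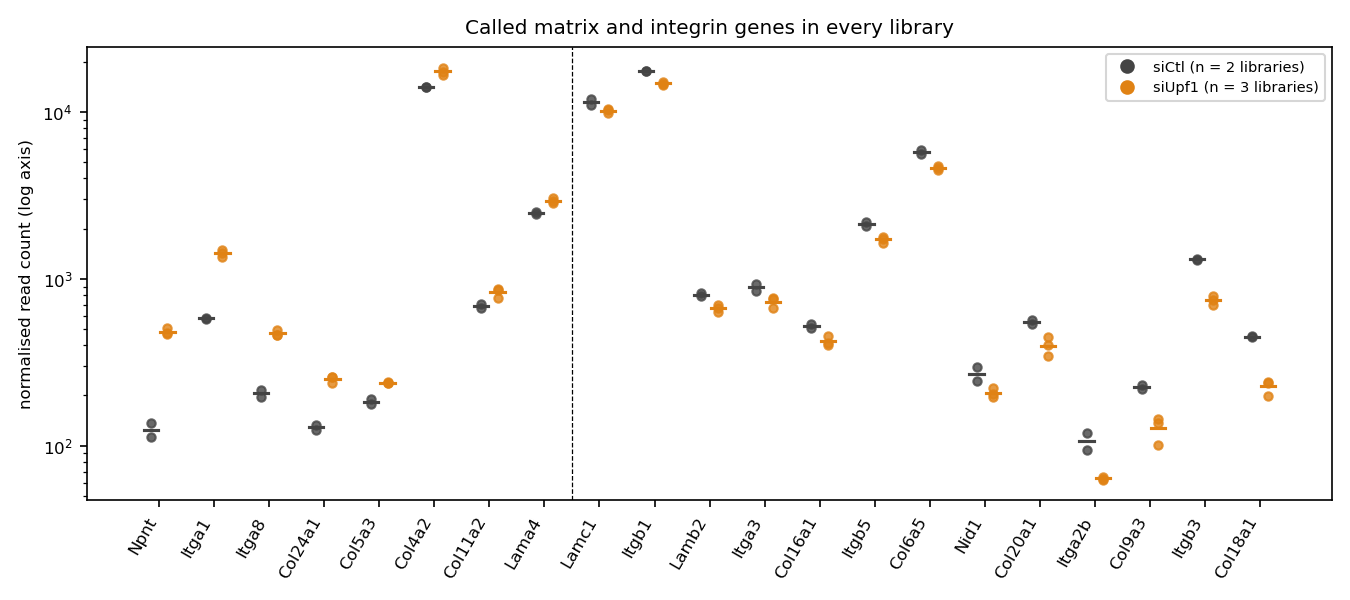
Normalised read counts (log axis) of the 21 called members in each library, ordered by log2 fold change, with a bar at each group's mean and a dashed line between genes called higher and lower. In Npnt the siUpf1 points lie at 466 to 509 and the siCtl points at 112 and 136, and in no called member do the groups overlap.

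Among the α subunits, Itga3 (laminin receptor) and Itga2b (the platelet subunit αIIb) were called lower. Itga3 had 931 and 847 normalised counts in siCtl and 766, 753 and 672 in siUpf1 (log2 fold change -0.28, SE 0.10, adjusted p = 0.00794). Itga2b had 119 and 94.3 in siCtl and 63.1, 65.3 and 62.4 in siUpf1 (log2 fold change -0.75, SE 0.26, adjusted p = 0.0112). Groups did not overlap in either gene, but neither was called without siCtl replicate 1 (DESeq2 adjusted p = 0.207 for Itga3 and 0.252 for Itga2b) or without siUpf1 replicate 3 (0.0973 and 0.0607).

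Itga6 and Itga5, the most abundant α subunits per length, were not called, and neither were the less abundant Itga7 and Itga10. Itga6, the α6 subunit of laminin receptors, had 5480 and 4963 normalised counts in siCtl and 5108, 5068 and 5108 in siUpf1 (log2 fold change -0.04, SE 0.05, adjusted p = 0.628). Itga5, the α5 subunit of the main fibronectin receptor, had a log2 fold change of -0.04 (SE 0.08), and Itga7 and Itga10, laminin and collagen receptor subunits, of 0.14 (SE 0.12) and 0.04 (SE 0.25).

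DESeq2 called no β subunit higher and 3 of 6 lower, against 22.0% and 22.9% of all genes tested. Itgb1, the shared partner of most α subunits named here, had 17667 and 17520 normalised counts in siCtl and 15206, 14755 and 14603 in siUpf1. Every siUpf1 library was lower, by a small step (log2 fold change -0.24, SE 0.04, adjusted p = 1.64e-09). Itgb3, the β3 subunit, had 1320 and 1295 in siCtl and 698, 791 and 744 in siUpf1, a larger step (log2 fold change -0.82, SE 0.08, adjusted p = 7.50e-21).

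Itgb5, the β5 subunit, had 2193 and 2074 normalised counts in siCtl and 1644, 1745 and 1780 in siUpf1 (log2 fold change -0.31, SE 0.07, adjusted p = 1.39e-05). Groups did not overlap. The others were of low count, with means of 28.3 to 83.8 normalised counts in siCtl. Itgb4 (hemidesmosome subunit) had a log2 fold change of 0.04, Itgb7 (leukocyte subunit) 0.59 and Itgb2 (leukocyte subunit) -0.71, none called by DESeq2. EdgeR called Itgb7 higher (edgeR adjusted p = 0.0433) and Itgb2 lower (0.0409).

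Itgav, the αv partner of β3 and β5, is outside the name rule. It had 1541 and 1447 normalised counts in siCtl and 1737, 1632 and 1817 in siUpf1, with a log2 fold change of 0.21 (SE 0.07, adjusted p = 0.00823) and no overlap, a call lost without siCtl replicate 3 or siUpf1 replicate 3 (0.210 and 0.0914). Per length, the ratio of Itgb3 to Itgav was 1.56 and 1.63 in siCtl and 0.732, 0.882 and 0.746 in siUpf1. The ratio thus fell (exact permutation p = 0.1), and the size of that fall does not depend on the lengths used. Which mRNA was above the other in siCtl does, since by count Itgb3 was below Itgav in every library. The ratio of Itgb5 to Itgav went from 4.32 ± 0.02 (SD, n = 2) to 3.02 ± 0.19 (SD, n = 3). Itgal, a leukocyte α subunit that pairs with β2 and is also outside the rule, had 114 and 118 normalised counts in siCtl and 40.0, 52.7 and 46.4 in siUpf1 (log2 fold change -1.33, SE 0.27, adjusted p = 5.80e-06).

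The makeup of the integrin mRNA pool, per length, is given as a description. Of the α subunits, Itgav and the other subunits outside the name rule included, Itga6 made up 44.4% ± 0.59 (SD, n = 2) in siCtl and 42.0% ± 0.50 (SD, n = 3) in siUpf1. Itga1 went from 2.40% ± 0.15 to 5.68% ± 0.24, Itga8 from 2.14% ± 0.03 to 4.77% ± 0.19, and Itga3 from 11.9% ± 0.12 to 9.50% ± 0.57. Of the β subunits, Itgb1 made up 83.4% ± 0.45 and 84.9% ± 0.80, and Itgb3 went from 4.29% ± 0.01 to 2.94% ± 0.20.

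Summed over the 9 α members, the level was 191 and 172 in siCtl and 197, 194 and 194 in siUpf1. Summed over the 6 β members, it was 835 and 809 in siCtl and 724, 700 and 716 in siUpf1, a change of -13.2%. In the plot of partner ratios, Itga8 over Itgb1 was higher in every siUpf1 library, from 0.00647 ± 0.00042 to 0.0176 ± 0.00044 on average. So was Itga1 over Itgb1, from 0.00724 ± 0.00008 to 0.0210 ± 0.00066. Outside the plot, the ratios of Itga5, Itga6 and Itga7 to Itgb1 were also higher in every siUpf1 library, by 1.15, 1.16 and 1.31-fold. That of Itga3 to Itgb1 overlapped between groups.

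**Figure D3:**
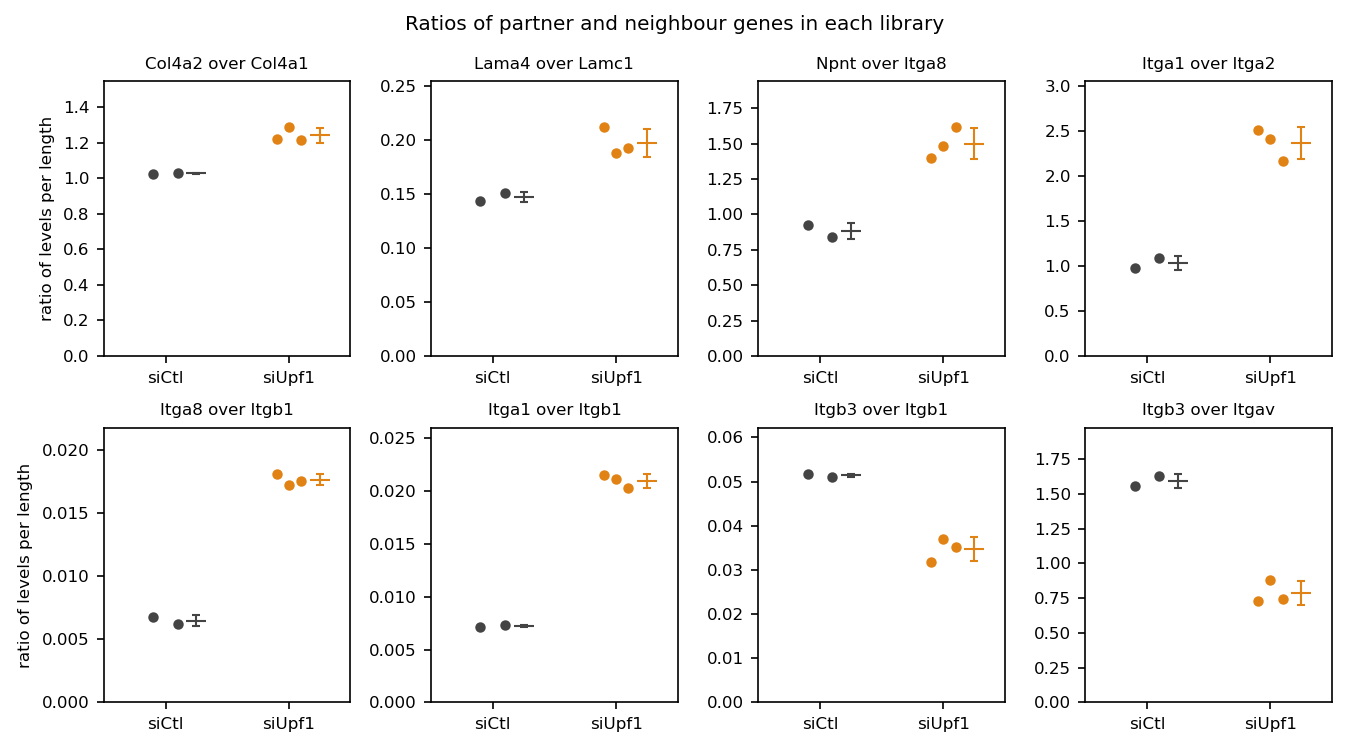
Ratio of levels per length for partner or neighbour genes in each library (points), with the group mean and SD beside them, each y axis starting at 0. In all 8 panels the siCtl and siUpf1 points are apart; Col4a2 over Col4a1 is 1.03 in siCtl and 1.22 to 1.29 in siUpf1, and Itgb3 over Itgav is 1.56 and 1.63 in siCtl and 0.732 to 0.882 in siUpf1.

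The ligands of these receptors are led by collagen IV, the collagen network of basement membranes. Its chains α1 and α2, Col4a1 and Col4a2, are encoded head to head on chromosome 8 (Col4a1 at 11198423-11312826 on the minus strand, Col4a2 at 11312805-11449287 on the plus strand). Their starts lie 21 bases apart, so the annotated 5′ ends overlap by 22 bases. The overlap is shown on the plus strand of GRCm38.p6 because both genes begin in it. Motifs are not put in capitals there, and it holds a match to the GC box.
Col4a1 and Col4a2 overlap, chr8:11312805-11312826: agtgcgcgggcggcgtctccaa

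Col4a2 had 14162 and 14044 normalised counts in siCtl and 16694, 18468 and 17384 in siUpf1. The groups did not overlap, and the log2 fold change was 0.31 (SE 0.05, adjusted p = 8.83e-11). Col4a1 had 15575 and 15367 in siCtl and 15407, 16165 and 16125 in siUpf1, with overlap and no call (log2 fold change 0.04, SE 0.04, adjusted p = 0.457). The ratio of Col4a2 to Col4a1, per length, was 1.03 in both siCtl libraries and 1.22, 1.29 and 1.22 in siUpf1 (exact permutation p = 0.1).

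The collagen IV trimer of most tissues holds 2 α1 chains and 1 α2 chain. With these mRNAs at near equal levels per length in siCtl, the siUpf1 libraries held more α2 than α1 mRNA. Col4a3, Col4a4, Col4a5 and Col4a6, the chains of other collagen IV networks, summed to 3, 11, 15 and 2 counts over the 5 libraries and were not members.

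Of the 5 fibrillar collagens, which form the tension-bearing fibrils of connective tissue, 3 were called higher, against 22.0% of all genes tested. Col24a1 had 133 and 125 normalised counts in siCtl and 257, 259 and 239 in siUpf1 (log2 fold change 0.96, SE 0.17, adjusted p = 1.39e-07). Col5a3 had 178 and 190 in siCtl and 238, 237 and 241 in siUpf1 (log2 fold change 0.38, SE 0.16, adjusted p = 0.0441). Col11a2 had 707 and 669 in siCtl and 772, 866 and 852 in siUpf1 (log2 fold change 0.27, SE 0.09, adjusted p = 0.0111).

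Groups did not overlap in these 3 genes, and the step of Col24a1 was the largest of them. Each of the 5 fits that left out a library lost the call of Col5a3 (DESeq2 adjusted p from 0.106 to 0.268), and those without siCtl replicate 1, siCtl replicate 3, siUpf1 replicate 2 or siUpf1 replicate 3 lost that of Col11a2 (0.0595 to 0.185). With each library's trend with length and GC content removed, Col5a3 had 0.28 (DESeq2 adjusted p = 0.150) and Col11a2 0.16 (0.140), neither called. Col1a1 and Col2a1, the main fibril chains of bone and cartilage, had few counts and log2 fold changes of -0.36 (SE 0.32) and -0.53 (SE 0.26), not called, though without those trends Col2a1 was called lower at -0.66 (DESeq2 adjusted p = 0.0262). Col1a2, Col5a1 and Col5a2 were below the count threshold with 15, 4 and 4 counts, so the usual partners of Col1a1 and of Col5a3 were hardly read.

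Of the 6 fibril-associated collagens, which sit on the surface of fibrils, 3 were called lower, against 22.9% of all genes tested. Col9a3, a chain of collagen IX, had 220 and 231 normalised counts in siCtl and 136, 102 and 144 in siUpf1 (log2 fold change -0.81, SE 0.19, adjusted p = 1.01e-04). Col20a1 had 564 and 540 in siCtl and 347, 400 and 447 in siUpf1 (log2 fold change -0.47, SE 0.12, adjusted p = 5.49e-04). Col16a1 had 534 and 509 in siCtl and 414, 453 and 402 in siUpf1 (log2 fold change -0.31, SE 0.11, adjusted p = 0.0190).

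These groups did not overlap, although the siUpf1 libraries of Col9a3 and Col20a1 were spread widely. The call of Col16a1 was lost without either siCtl library and without siUpf1 replicate 1 or 3 (DESeq2 adjusted p from 0.0811 to 0.195). The partner chains of collagen IX, Col9a1 and Col9a2, were below the threshold with 42 and 29 counts. Col22a1, Col14a1 and Col12a1 were not called, with log2 fold changes of 0.16, -0.24 and 0.82.

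Col18a1, the core protein of a basement membrane collagen whose C-terminal fragment is endostatin, fell furthest among the members. It had 452 and 446 normalised counts in siCtl and 242, 238 and 200 in siUpf1, with no overlap, a log2 fold change of -0.99 (SE 0.14, adjusted p = 1.27e-11) and 50.5% of the siCtl mean. Col15a1, its close relative, had a mean of 10.95 and 10.8 normalised counts and could not be compared at this depth (SE 0.70).

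Col6a5, a chain of the beaded collagen VI, was the third most abundant collagen per length. It had 5938 and 5595 normalised counts in siCtl and 4752, 4523 and 4635 in siUpf1, with no overlap (log2 fold change -0.31, SE 0.05, adjusted p = 1.65e-09). Its neighbour Col6a6, 27917 bases away on chromosome 9, had 19.8 to 22.01 and 16.0 to 18.7 normalised counts (log2 fold change -0.29, SE 0.53, not called). Col6a1, the core chain of collagen VI, had a log2 fold change of 0.14 (SE 0.19), and its partners Col6a2 and Col6a3 had 31 and 7 counts in all.

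The remaining collagens with more counts were not called: Col7a1 (anchoring fibrils) at a log2 fold change of 0.18, Col13a1 and Col17a1 (transmembrane collagens) at 0.15 and -0.03, and Col26a1 at -0.16. Col28a1 and Col23a1 had log2 fold changes of 1.47 (SE 0.66, adjusted p = 0.0553) and 1.22 (SE 0.57, adjusted p = 0.0690) from means of 6.97 and 10.8 normalised counts in siCtl. EdgeR called both, but Col28a1 reached the count threshold only through its siUpf1 libraries, so nothing is drawn from its difference. Summed over the 24 collagens, the level per length was 897 and 866 in siCtl and 962, 1004 and 1008 in siUpf1, a change of 12.4% that Col4a2 led, from 339 ± 5.85 (SD, n = 2) to 440 ± 17.9 (SD, n = 3).

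Laminins are trimers of an α, a β and a γ chain. Lama4, the α4 chain, had 2511 and 2440 normalised counts in siCtl and 3035, 2833 and 2935 in siUpf1 (log2 fold change 0.25, SE 0.06, adjusted p = 6.93e-05). Lamc1, the γ1 chain that most laminins share, had 11957 and 11091 in siCtl and 9816, 10332 and 10450 in siUpf1 (log2 fold change -0.18, SE 0.05, adjusted p = 6.50e-04). Lamb2, the β2 chain, had 821 and 788 in siCtl and 632, 695 and 670 in siUpf1 (log2 fold change -0.27, SE 0.09, adjusted p = 0.00933).

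Groups did not overlap in these chains, so α4 went up and its possible partners β2 and γ1 went down. The call of Lamc1 was lost without siCtl replicate 1 (DESeq2 adjusted p = 0.115), and that of Lamb2 without siCtl replicate 1, siCtl replicate 3 or siUpf1 replicate 1 (0.0673 to 0.148). The ratio of Lama4 to Lamc1 was 0.144 and 0.151 in siCtl and 0.212, 0.188 and 0.192 in siUpf1 (exact permutation p = 0.1). Lama5, the α5 chain, was not called (log2 fold change -0.02, SE 0.06), but was called lower with length and GC trends removed (-0.15, DESeq2 adjusted p = 0.00701), where Lama4 rose by 0.16 in place of 0.25. Lama2 and Lamc3 were not called, at 0.26 (SE 0.41) and 0.24 (SE 0.55).

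Lamb1 and Lama1, chains of the first laminin of the embryo, had 15 and 6 counts over all libraries. The level of the 7 laminin chains together was 361 and 330 in siCtl and 327, 336 and 350 in siUpf1, groups that overlapped.

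Fibronectin and nidogen complete the list. Fn1, the ligand of α5β1, had 8575 and 7932 normalised counts in siCtl and 7801, 7869 and 8188 in siUpf1, with overlap and no call (log2 fold change -0.05, SE 0.05, adjusted p = 0.392). With each library's trend with length and GC content removed, it was called lower (log2 fold change -0.14, DESeq2 adjusted p = 8.47e-04). Nid1, which links laminin to collagen IV, had 297 and 244 in siCtl and 222, 197 and 203 in siUpf1 (log2 fold change -0.38, SE 0.16, adjusted p = 0.0433), a call lost in each of the 5 fits that left out a library (0.0599 to 0.458). Nid2 had 37 counts over the 5 libraries.

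Per length, a few genes held most of the matrix and integrin mRNA. In siCtl the order was Itgb1 at a level of 685 ± 11.9 (SD, n = 2), Col4a2 at 339 ± 5.85, Col4a1 at 329 ± 6.88, Lamc1 at 222 ± 14.3 and Fn1 at 112 ± 7.45, which together made up 70.7% of the summed level of the members. Col4a2 and Col4a1 differed there by less than 2 SD, as did Col6a5 (97.4 ± 5.21), Itgb5 (95.5 ± 4.86) and Itga6 (92.0 ± 7.48), the next in order. In siUpf1 Col4a2 (440 ± 17.9, SD, n = 3) stood above Col4a1 (354 ± 10.2) by more than their spread. The summed level of all members was 2445 and 2326 in siCtl and 2380, 2398 and 2445 in siUpf1, a change of 0.922%.

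**Figure D4:**
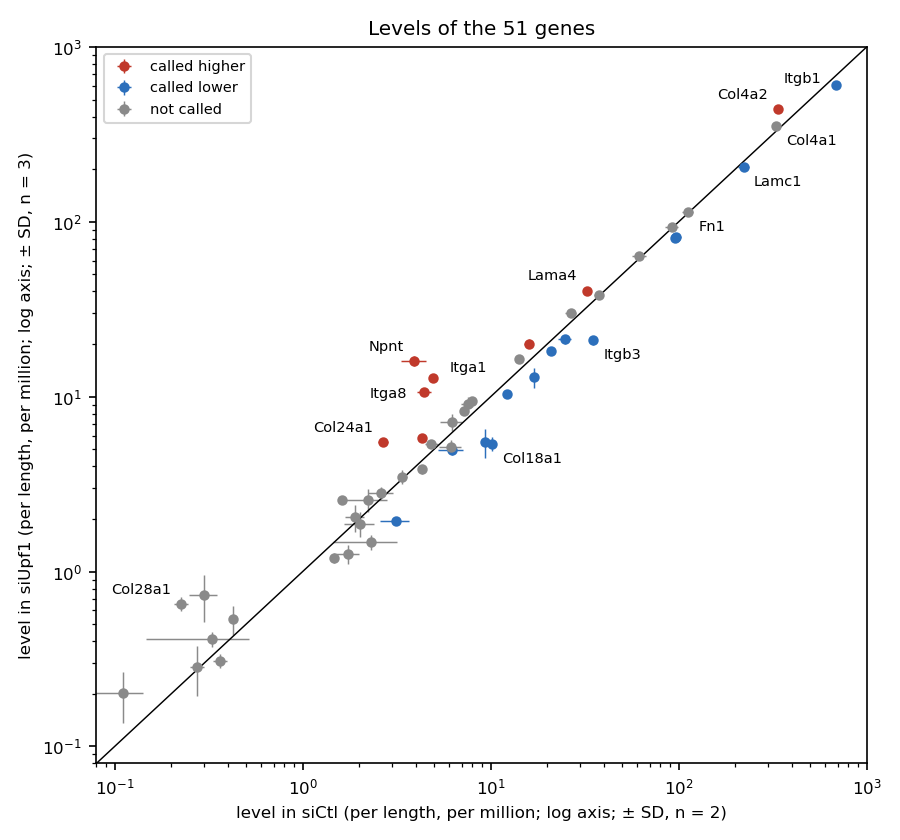
Level per length of each of the 51 members in siCtl (x axis) and siUpf1 (y axis), both log axes, with the SD over 2 and 3 libraries as bars, the line of equal levels, and colour by call. Npnt, Itga1 and Itga8 lie above the line at siCtl levels near 4 to 5, and the genes with the highest levels, Itgb1, Col4a2 and Col4a1, lie close to it.

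Of the 21 calls, 12 were kept in every alternative fit, 6 higher (Npnt, Itga1, Itga8, Col24a1, Col4a2, Lama4) and 6 lower (Col18a1, Itgb3, Col20a1, Col6a5, Itgb5, Itgb1). Over the members' annotation, 9 of 51 (17.6%) had a transcript annotated as a target of NMD, against 28.5% of the protein-coding genes tested. It was 1 of the 8 called higher (Itga8), 4 of the 13 called lower and 4 of the 30 not called. Among all protein-coding genes the shares were 26.9%, 31.2% and 27.8%. A transcript of a gene may carry that annotation and not be made in N2A cells, and counts per gene do not show which transcript was read.

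The members were longer than other genes, with a median of 6809 bases of merged exon against 4440, and had a higher median GC content, 56.2% against 50.1%. Their 3′ untranslated regions, taken from the longest protein-coding transcript, had a median of 1138 bases in members called higher, 1049 in those called lower and 904.5 in those not called. Among all protein-coding genes tested the medians were 1685, 900 and 1010 bases. Long and short ones were found whatever the call. Npnt (2685 bases), Itga8 (2483) and Itga1 (6994), called higher, had long ones. So did Itgb3 (3331) and Lamc1 (2551), called lower, and Itga2 (3404), not called. Lama4 (155) and Col5a3 (785), called higher, had shorter ones.

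Other genes of the matrix and adhesion pathway were read from 6 lists of 165 genes in all, of which 126 were tested, 46 called higher and 28 lower. That is 58.7% called, against 44.9% of all genes and 51.2% of protein-coding genes tested, and the lists were chosen with earlier results of these libraries known. The enzymes and chaperones that make collagen were called more often higher than lower, 12 against 5 of 23 tested, with a median log2 fold change of 0.17, where all genes tested had 22.0% higher, 22.9% lower and a median of -0.0024. Colgalt2, which adds galactose to collagen, rose by a log2 fold change of 1.14 (SE 0.20) and Loxl2, a crosslinking oxidase, by 0.77 (SE 0.05). Crtap, a partner of the prolyl 3-hydroxylase, had -0.66 (SE 0.08) and Pcolce, an enhancer of procollagen cleavage, -0.61 (SE 0.07), both called lower.

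Of 25 other matrix glycoproteins and proteoglycans tested, 9 were called higher and 5 lower (median 0.05), against 22.0% and 22.9% of all genes tested. Fbn1, the main protein of microfibrils, had 483 and 456 normalised counts in siCtl and 1765, 1707 and 1873 in siUpf1, a rise near that of Npnt in size (log2 fold change 1.93, SE 0.08, adjusted p = 5.73e-113). Tnc (tenascin C) rose by 1.18 (SE 0.35), while Ltbp2, a binding partner of microfibrils, and Sparc, a collagen-binding protein, were called lower at -0.86 (SE 0.32) and -0.71 (SE 0.05). The call of Tnc was lost without siCtl replicate 3 (DESeq2 adjusted p = 0.109), and that of Ltbp2 without either siCtl library or siUpf1 replicate 1 or 2 (0.0647 to 0.195).

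Of 11 matrix receptors that are not integrins, 6 were called higher and 2 lower (median 0.14), against 22.0% and 22.9% of all genes tested. Sdc3, a syndecan, had a log2 fold change of 0.70 (SE 0.06) and Ddr2, a collagen receptor kinase, of 0.41 (SE 0.05). Hmmr, a hyaluronan-binding protein of the spindle, had -0.35 (SE 0.07), and Ddr1, the other collagen receptor kinase, -0.23 (SE 0.06), called with all libraries but not without siCtl replicate 1 (DESeq2 adjusted p = 0.0509).

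Inside the cell, 11 of 37 integrin adaptors and focal adhesion genes were called higher and 10 lower (median 0.04). Over all genes tested the shares were 22.0% and 22.9%. Tln2, a talin that joins β subunits to actin, had 1985 and 2043 normalised counts in siCtl and 4315, 4509 and 4618 in siUpf1 (log2 fold change 1.15, SE 0.06, adjusted p = 7.37e-94), and Arhgef7, an exchange factor at adhesions, rose by 0.87 (SE 0.06). Lims1 (PINCH1), a partner of integrin-linked kinase, had 3393 and 3235 in siCtl and 1320, 1170 and 1196 in siUpf1 (log2 fold change -1.43, SE 0.07, adjusted p = 8.37e-97). Vasp, an actin polymerisation factor, fell too (log2 fold change -1.27, SE 0.06, adjusted p = 2.41e-94).

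Of 26 proteases and inhibitors that cut or protect the matrix, 7 were called higher and 5 lower (median -0.04). These shares were near those of all genes tested, 22.0% and 22.9%. Mmp24 and Mmp17, membrane-anchored metalloproteinases, had log2 fold changes of 1.20 (SE 0.15) and 0.98 (SE 0.08). Adam17, a sheddase, was called lower at -0.69 (SE 0.08). Of the 4 tested genes with integrin names outside the name rule, Itgav was called higher and Itgal lower.

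**Figure D5:**
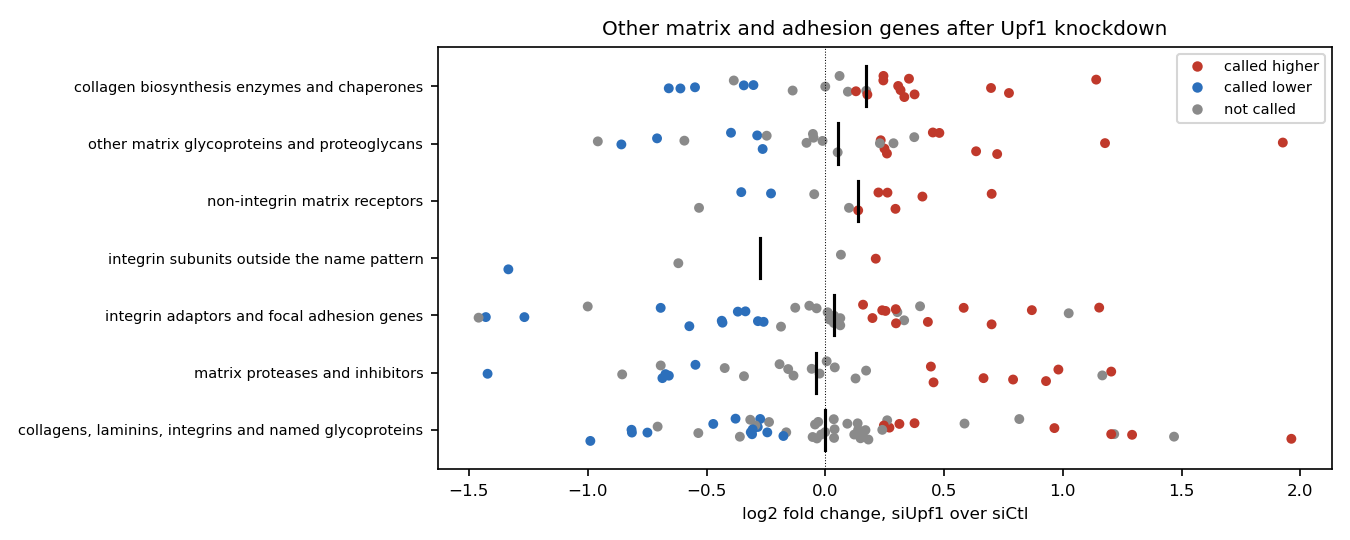
Log2 fold change of siUpf1 over siCtl for each tested gene of the 6 lists and of the 51 members (bottom row), with a black bar at each median and colour by call. Every list of at least 11 genes spans both sides of 0, with medians from -0.04 to 0.17. The collagen biosynthesis list has 12 of 23 genes called higher and 5 lower, against 22.0% and 22.9% of all genes tested.

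The count rule left out 32 genes with a matching symbol, of which 5 had no read in any library (Col3a1, Col10a1, Col25a1, Itgb2l and Itgb8). The members nearest the threshold were Col15a1 with 56 counts, Col28a1 with 73 and Col12a1 with 78, and just outside were Itgb1bp2 with 47, Col9a1 with 42, Nid2 with 37 and Itga9 with 35. Col28a1 was the 1 member that would have missed the sum at the mean of its siCtl libraries, so it entered through the group where it was high. Of the 51 members, 42 averaged 50 or more normalised counts, and all 21 calls were among them.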

How the data were processed

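Polyadenylated RNA of 5 N2A libraries was sequenced with a stranded kit. Per the labels and the study's methods, the authors trimmed reads with fastp, aligned them to GRCm38.p6 with STAR 2.7.0f and counted them per gene with featureCounts (Subread 1.6.4) on the reverse strand, and the deposited values are raw counts, not normalised or pooled. All 55573 rows were genes, and 0 per-sample columns were left without a sample. Reads shared by near-identical genes can be lost in such counts, and duplicates cannot be seen, so counting error is a lower limit.

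Counts were tested with DESeq2 1.42.0 in R 4.3.3, siUpf1 against siCtl without covariates, with its default size factors and Benjamini-Hochberg adjustment over all genes tested, as in the study. A call is an adjusted p under 0.05. In simulated counts for 25154 genes, changes of each size were given to 100 genes, all with a mean of at least 50. DESeq2 recovered 73% of log2 changes of 0.5 and 91% of changes of 1, and 5.75% of its calls were false. Far more genes were called in the real data, and genes with lower means were not covered. Alternatives were edgeR 4.0.16, TMM or total-count size factors, at least 10 counts in 2 libraries, no independent filtering, a replicate block, removal of length and GC trends, and each library left out. Positions and lengths came from GENCODE M21 and promoter windows from RefSeq, both on the GRCm38 build. Ratios of genes used an exact permutation test. Members and lists were chosen with earlier results of these data known. Values in every library are given for called members that averaged 50 or more normalised counts, and for their partners, and the 2 largest called increases and decreases of each list are named, except that 2 genes are not reported here.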

Additional observations from a re-analysis of the deposited data

How the results depend on the processing

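Some of the named genes, not all, were compared under each alternative. Of these 552 comparisons, 497 kept direction and call and 53 lost the call, mostly for Col5a3, Nid1, Col11a2 and Col16a1. Among named members that were not called, Itgb7 and Itgb2 gained a call in edgeR, and Itga10 changed direction without siCtl replicate 1. With length and GC trends removed, Col4a1 had a log2 fold change of -0.022 (DESeq2, adjusted p = 0.603) in place of 0.04, the calls of Col5a3 and Col11a2 were lost, and Col2a1, Lama5 and Fn1 were called lower, Fn1 at -0.14 (adjusted p = 8.47e-04). The members called higher stayed between 6 and 12 over the alternatives, the 12 in edgeR with Col28a1 included. Leaving out 1 library at a time gave 6 to 7 members called higher and 7 to 12 called lower, the 7 without siCtl replicate 1, and over all genes 2393 to 2944 called higher and 2374 to 3115 lower. A fit without 1 siCtl library has 1 control, assumed to vary like the siUpf1 libraries. EdgeR kept all 21 calls and added 6, Col28a1 among them. With lengths from the longest transcript, the summed siCtl level of the members was 2063 in place of 2386. No pairing of the libraries by replicate number was seen (correlations of deviations -0.0861 and -0.0748 over 11898 genes). Both values rest on the same difference between the siCtl libraries, so they cannot exclude pairing. With the number as a replicate block, 6 members were called higher and 6 lower, and over all genes 1957 higher and 1962 lower. No scaling moved the median of all genes by over 0.1. The cause of these shifts was not tested. Low counts limit the 9 members under a mean of 50.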
